A study of Mus musculus with 8 samples.

Results

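The glia library, made from brain of C57 mice, was set against the cerebellum, cortex and hippocampus libraries of the same strain, 4 of the 8 libraries of the series. Each was 1 library of total RNA, built with the Illumina TruSeq kit from 1 ug. The labels call the first "glia" and give brain as its source. The age and sex of the mice, the way the glia were isolated, whether they were kept in culture, and whether animals were pooled are not stated in the labels or files. The other libraries of the series are a neuron preparation from brain of C57 mice, embryonic fibroblasts of strains ICR and OG2 from day 13.5 embryos (MEF), and embryonic stem cells. A gene lay outside the tissue when its level in glia was above or below all 3 regions, and levels are in TPM, which scales transcripts to the same total in every library. It was called higher when glia had at least 10 TPM and stood at least 4-fold above the highest region, and lower when every region had at least 10 TPM and glia stood at least 4-fold below the lowest, both on TPM with 1 added.

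Glia are the non-neuronal cells of nervous tissue. Astrocytes clear glutamate and potassium, couple to each other through connexin channels and feed neurons. Oligodendrocytes wrap axons in myelin and arise from dividing precursors, and microglia are the resident macrophages. Astrocytes in injured tissue or in a dish are known to gain intermediate filaments such as vimentin and nestin, and contractile actin, matrix and cell cycle genes are low in most cells of the mature brain outside its vessels and meninges.

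The glia library differed from brain tissue in 2 opposite ways. All 28 listed mitosis genes, 12 of 18 smooth muscle type contractile genes, 52 of 114 matrix genes and 14 of 22 reactive astrocyte genes were called higher. Of 16 myelin genes 14 were called lower, and so were 8 of 22 genes of mature astrocytes. Smooth muscle actin (Acta2) had 4147 TPM in glia, against 8.02 in cerebellum, 13.5 in cortex and 9.84 in hippocampus. Myelin basic protein (Mbp) had 4.02 TPM in glia, against 3545 in cerebellum, 2543 in cortex and 3391 in hippocampus. Among 184 genes of metabolism and antioxidant defence 8 were higher and 8 lower.

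Genes that averaged 1 TPM or more over the 4 libraries numbered 15980, and of these 784 were called higher in glia (4.91%) and 1026 lower (6.42%). Without the size requirement 5281 genes lay above all 3 regions (33.0%) and 6979 below them (43.7%). Of the lower genes 622 were neuronal, being at least 4-fold higher in the neuron library than in glia with 1 TPM added or on a list of pan-neuronal genes, as were 2 of the higher ones. They were set aside, which left 782 higher and 404 lower genes. Genes of neurons with little RNA in the neuron library can remain among the 404. The shares of all tested genes given below still count the neuronal ones. Over the tested genes the median difference between glia and the mean of the regions was -0.20 on the log2(TPM + 1) scale, and the median range of the 3 regions was 0.65 on that scale. The 3 regions are different tissues, each with 1 library, so they are not replicates and nothing here was tested against a replicate spread. Intervals are exact 95% intervals from the counts and cover counting error only.

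**Figure D1:**
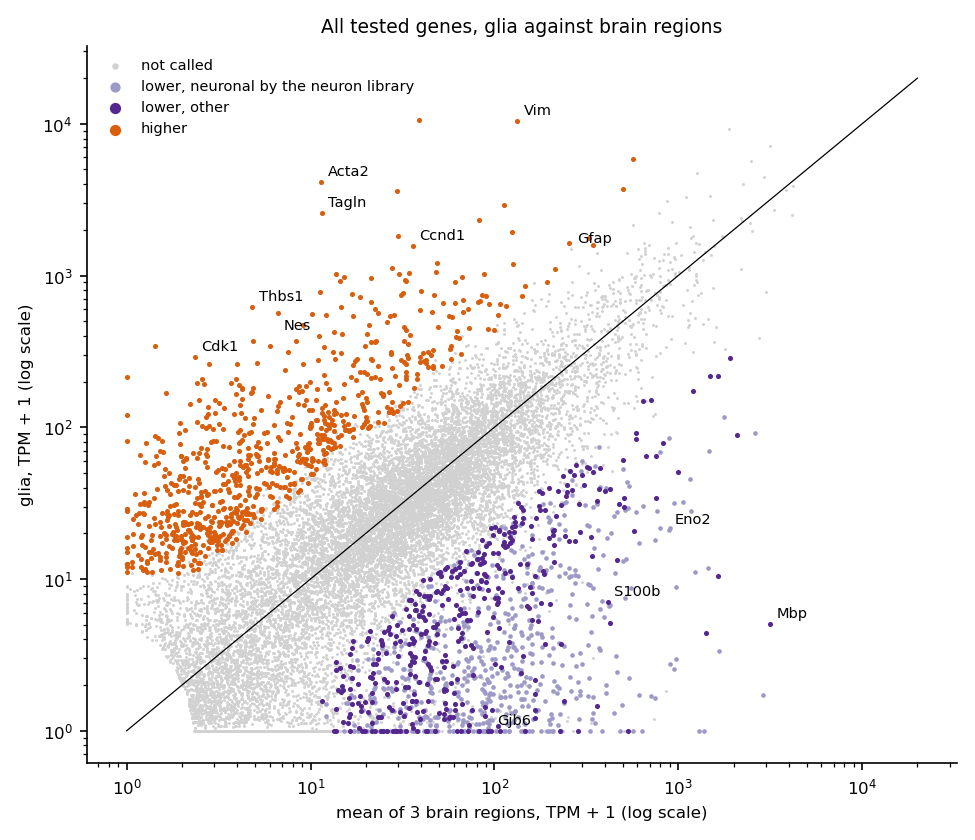
Level of each tested gene with a symbol in glia (vertical axis) against the mean of cerebellum, cortex and hippocampus (horizontal axis), both as TPM + 1 on log scales, with the line of equal levels. Orange points were called higher and purple points lower, the pale ones being neuronal; Acta2 at 4147 TPM and Mbp at 4.02 TPM in glia lie at opposite ends.

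Total expected counts were 5864673 in glia and 3686772 to 5572116 in the regions. For an effective length of 2000 bases, 3 counts came to 0.528 TPM in glia and to 0.625, 0.656 and 0.943 TPM in cerebellum, cortex and hippocampus. Spearman's rho over 14407 protein-coding genes, a description across genes that share libraries, was 0.610 to 0.630 between glia and the regions and 0.874 to 0.966 between the regions. Ribosomal protein genes took 7.36% of TPM in glia and 4.56% to 5.59% in the regions, and effective length, weighted by counts, averaged 3409 bases in glia and 3729.8 to 3739.7 in the regions. With a trend over effective length removed, 940 genes were called higher and 927 lower. The part of these differences in the results was otherwise not tested. Haemoglobin genes summed to 0 TPM in glia, against 2364 in cerebellum, 1291 in cortex and 1142 in hippocampus. All 6 erythroid genes listed were at 0 counts in glia, so among glia and the regions blood was measured in the tissues alone. The neuron library had 19.18 TPM of haemoglobin genes.

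The label was set against cell type markers. Gfap, Aqp4 and Slc1a3 of astrocytes and C1qa of microglia were measured in glia within or above the range of the regions. The astrocyte markers Slc1a2, S100b and Gjb6 were called lower, as described below, and Mbp, Mobp and Mog of myelin were at 4.02 TPM or less in glia. Of 14 pan-neuronal genes 10 were called lower, and Rbfox3, Nefl and Elavl4 were at 0 in glia. Stmn2 at 288 TPM, Uchl1 at 340 TPM and Map2 at 118 TPM were the pan-neuronal genes with the most RNA in glia. In a bulk library, fewer cells of a type and less RNA per cell cannot be told apart.

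Among the glial genes, those of immature and reactive astrocytes were higher while those of mature astrocyte function were more often lower than higher. Of 16 immature astrocyte and radial glia genes 9 were higher, at a median difference of 2.57 (log2), and of 22 reactive astrocyte genes 14 were higher, at a median of 3.05, and neither list had a lower gene. Both shares lie far above the 4.91% of all genes. High sums of these lists were not particular to glia in this series. The immature list summed to 16691 TPM in glia, 830 to 1735 in the regions, and 6887 and 7094 in ICR MEF and OG2 MEF. The reactive list summed to 13953 TPM in glia, 448 to 829 in the regions, and 9156 and 9360 in the MEF libraries. Vim stands in both lists. Of 22 astrocyte identity genes 1 was higher and 8 were lower, with a median of -1.09. The lower share is far above the 6.42% of all tested genes. Of the 22, 13 lay below all 3 regions and 4 above, beside 43.7% and 33.0% of all tested genes. Over all glial lists 32 of 125 measured genes were higher and 24 lower, 123 of the 125 having a mean of 1 TPM or more.

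Vimentin (Vim, chr2:13573927-13582826, GRCm38), the intermediate filament of immature and reactive astrocytes and of mesenchymal cells, had 10414 TPM in glia, against 280 in cerebellum, 58.8 in cortex and 58.2 in hippocampus. Nestin (Nes), the filament of neural progenitors, had 562 TPM in glia, against 6.03 TPM in cerebellum, 6.31 TPM in cortex and 4.55 TPM in hippocampus. The lipid carrier of radial glia, Fabp7, had 2900 TPM in glia, against 149, 97.9 and 88.1 TPM in the same 3 regions. In all 3 cases glia stood clear of the highest region, which for Vim and Fabp7 was cerebellum. Vim was 37.2-fold (35.1 to 39.4) and Nes 89.1-fold (72.1 to 111.5) above the nearest region. Fabp7 was 19.5-fold (17.1 to 22.4) above cerebellum.

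The progenitor transcription factors Sox2 and Sox9 and the differentiation inhibitors Id1 and Id3 were also called higher. Sox2 had 225 TPM in glia and 30.1 to 40.5 TPM in the regions, and Id3 had 738 TPM in glia and 26.4 to 59.2 TPM in the regions. Tenascin C (Tnc), a matrix protein of radial glia, had 372 TPM in glia and 3.50 to 13.9 TPM in the regions. The Notch target Hes5 did not follow, with 4.62 TPM in glia and 2.64, 33.0 and 18.3 TPM in the cerebellum, cortex and hippocampus libraries.

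Surface and secreted proteins were among the reactive list members called higher. Cd109, a membrane protein that binds TGF-beta, had 208 TPM in glia and 0.660 to 3.32 TPM in the regions. The pentraxin Ptx3 had 61.3 TPM in glia and 0.680 to 1.54 TPM in the regions, and the oncostatin M receptor Osmr 49.98 TPM in glia and 2.07 to 5.29 TPM in the regions. These genes were low in all 3 regions. Gfap, the filament by which astrocytes are usually recognised, had 1492 TPM in glia, against 204 in cerebellum, 169 in cortex and 408 in hippocampus. It stood above all 3 regions but 3.66-fold (3.47 to 3.86) above hippocampus, under the 4-fold rule. The acute phase gene Serpina3n lay within the tissue range, at 59.4 TPM in glia and 2.42, 18.4 and 75.6 TPM in cerebellum, cortex and hippocampus.

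Most genes of the mature astrocyte lay below all 3 regions, but not all of them. Water channel Aqp4 had 231 TPM in glia, against 240 in cerebellum, 88.6 in cortex and 92.8 in hippocampus, and the glutamate transporter Slc1a3 had 490 TPM in glia, against 960, 409 and 450 in the same regions. The potassium channel Kcnj10 and the membrane protein gene Mlc1 lay above all 3 regions at 254 and 586 TPM in glia. By contrast the main forebrain glutamate transporter Slc1a2 had 33.0 TPM in glia, against 188, 637 and 691 TPM in cerebellum, cortex and hippocampus, and was 5.69-fold (5.21 to 6.24) lower than cerebellum. The calcium-binding protein gene S100b had 6.02 TPM in glia, against 883, 196 and 157 TPM, and was 26.02-fold (16.9 to 42.1) lower than hippocampus. Aldh1l1, a folate enzyme widely used as an astrocyte marker, was the only member called higher, at 244 TPM in glia and 36.6 to 56.8 TPM in the regions.

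The gap junction genes of astrocytes parted. Connexin 43 (Gja1) had 154 TPM in glia and 161 to 182 TPM in the regions. Connexin 30 (Gjb6) had 0 counts in glia, against 136, 61.8 and 87.3 TPM in cerebellum, cortex and hippocampus, and was at least 51.2-fold lower with 3 counts taken as the limit of detection. Also called lower were the GABA transporter Slc6a11, the serine and alanine transporter Slc7a10, the neurotensin receptor Ntsr2, the orphan receptor Gpr37l1 and angiotensinogen (Agt), at 0.210 to 38.4 TPM in glia.

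The oligodendrocyte line separated the preparation from tissue in the other direction. Of 16 mature oligodendrocyte and myelin genes none was higher and 14 were lower, with all 16 below the 3 regions and a median of -5.34. Of all tested genes 43.7% lay below and 6.42% were called lower. Mbp was 633-fold (443 to 939) lower than cortex, the region nearest to glia. The myelin genes Mobp and Mog had 0 counts in glia, at least 481-fold and 64.6-fold lower. Cnp, an enzyme of myelin, was the exception in size, with 147 TPM in glia and 266 to 379 TPM in the regions. The other uncalled member, Opalin, was at 0 in glia, but cerebellum held 9.74 TPM, under the floor of 10 TPM.

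The precursor list was mixed, with 1 gene higher and 2 lower of 13 and a median of -0.07, which takes the other sign under 4 of the scalings tried. Without cerebellum 4 of them were lower. Against all 3 regions, 4.91% of all tested genes were higher and 6.42% lower. Olig1, a transcription factor of the line, had 631 TPM in glia, against 82.6, 123 and 137 TPM in cerebellum, cortex and hippocampus, and was 4.62-fold (4.18 to 5.12) above hippocampus. Olig2 had 102 TPM in glia and 15.1 to 26.2 TPM in the regions. Sox10, which commits cells to the oligodendrocyte fate, had 0 counts in glia, against 27.5, 33.6 and 35.0 TPM, and the precursor receptor Pdgfra had 1.27 TPM in glia, against 8.47, 34.0 and 27.8 TPM. High Olig1 and Olig2 thus stood beside Sox10 at 0 counts.

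Microglial genes mostly lay within 4-fold of tissue. Of 21 microglia genes none was called in either direction. Of them 13 lay above all 3 regions and 4 below, beside 33.0% and 43.7% of all tested genes, and the median was 0.94. Cerebellum carried much of this: the median was 1.95 against cerebellum, 0.39 against cortex and 0.54 against hippocampus, and without cerebellum 3 genes were lower. The complement gene C1qa had 161 TPM in glia, against 27.8, 91.1 and 91.8 TPM in cerebellum, cortex and hippocampus, and the colony stimulating factor receptor Csf1r 73.3 TPM in glia, against 18.2, 70.2 and 64.7 TPM. The surface genes Siglech and P2ry12, linked to the resting state, were below all 3 regions. Siglech had 0 counts in glia, against 4.31, 22.3 and 23.4 TPM, and the purine receptor P2ry12 5.92 TPM in glia, against 8.92, 51.8 and 57.4 TPM. Neither was called. Cerebellum was under 10 TPM for both, and for P2ry12 glia also stood less than 4-fold under cerebellum.

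Of 19 activated and phagocytic myeloid genes, 9 were higher, at a median of 2.45, and none was lower, beside 4.91% and 6.42% of all tested genes. Galectin 3 (Lgals3) had 259 TPM in glia, against 3.10, 1.57 and 0.770 TPM in cerebellum, cortex and hippocampus. Lysozyme (Lyz2) had 538 TPM in glia and 11.8 to 23.9 TPM in the regions, and osteopontin (Spp1) 455 TPM in glia and 13.3 to 46.4 TPM in the regions. Lgals3 and Spp1 were not particular to glia in this series. The MEF libraries had 274 and 302 TPM of Lgals3 and 605 and 507 TPM of Spp1. The cell source of these transcripts was not tested. The chemokine gene Ccl4 and the scavenger receptor Msr1 were called at 12.2 and 26.3 TPM in glia, with the regions at 0 to 0.880 TPM.

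**Figure D2:**
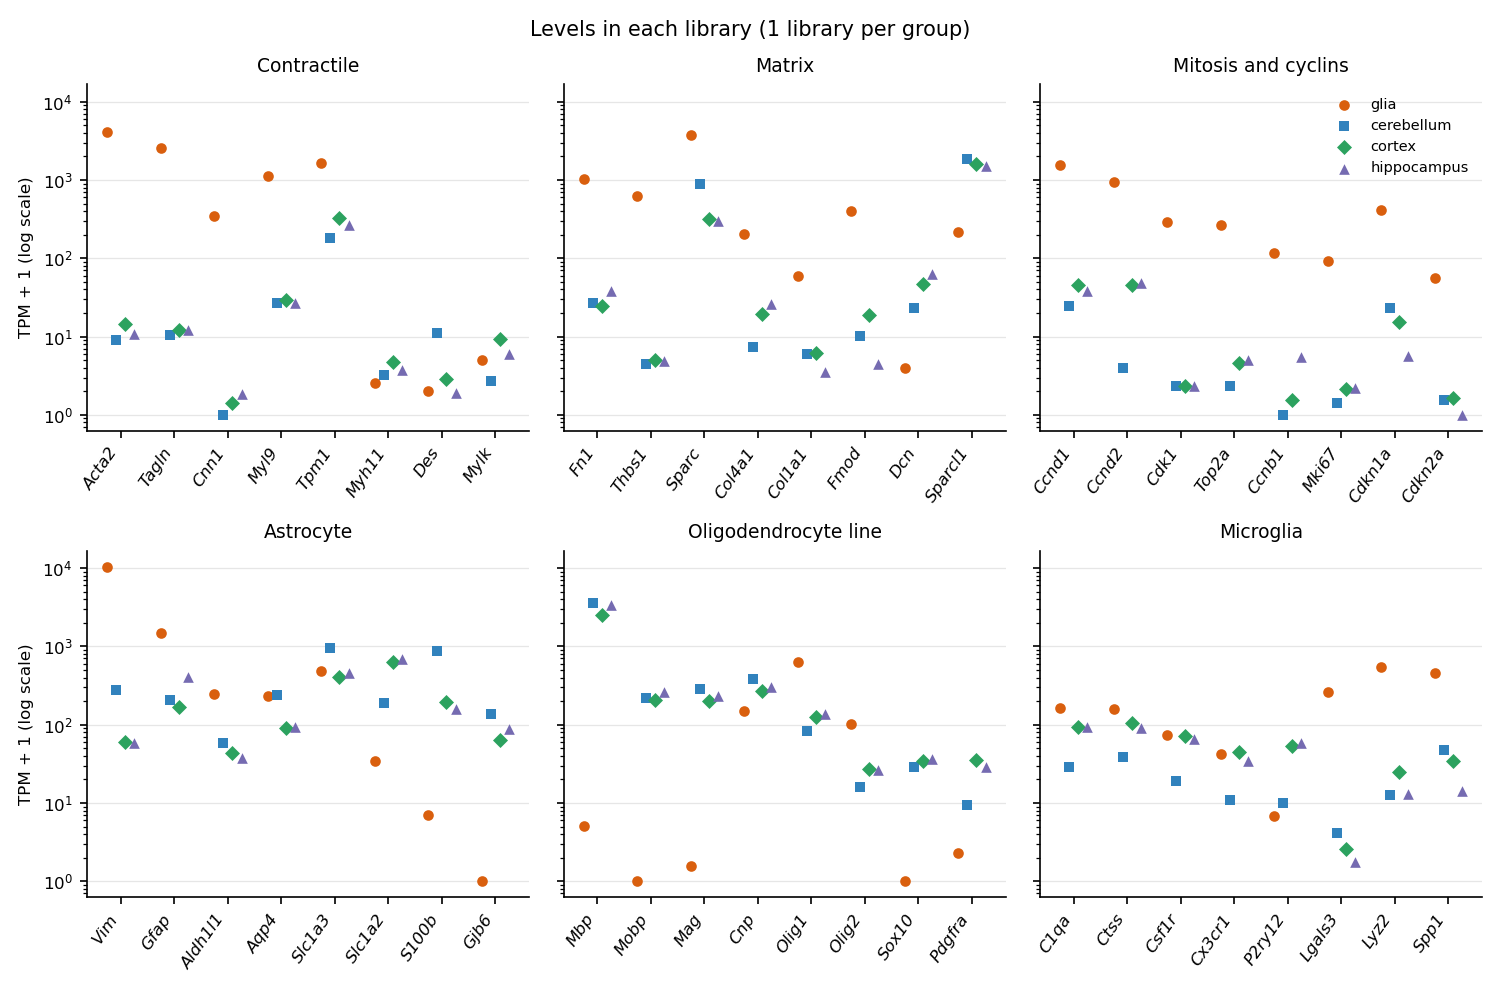
Levels of 48 genes in glia (circles), cerebellum (squares), cortex (diamonds) and hippocampus (triangles), as TPM + 1 on a log scale, 1 library each. Glia stands above the regions for Acta2, Fn1, Ccnd1 and Vim and below them for Mbp, S100b and Gjb6, while C1qa, Ctss and Csf1r lie close to cortex and hippocampus.

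Many contractile genes were higher, and none was lower. Of 18 smooth muscle contractile genes 12 were higher (median 3.20) and no gene was lower, and their summed level was 12295 TPM in glia, against 672 in cerebellum, 753 in cortex and 694 in hippocampus. Of 28 genes of the actin cytoskeleton and focal adhesions 15 were higher (median 2.43). Of the 28, 26 lay above all 3 regions, beside 33.0% of all tested genes. Of 18 regulators of the contractile programme 5 were higher (median 0.79). Neither of these lists had a lower gene. Across the 64 contractile genes, 62 of them with a mean of 1 TPM or more, 32 were higher and none lower, beside 4.91% and 6.42% of all tested genes. Without cerebellum 1 regulator was lower.

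Acta2 (chr19:34241090-34255590, GRCm38), the actin of vascular smooth muscle and of myofibroblasts, was 306-fold (232 to 413) above cortex, the highest region. Transgelin (Tagln), an actin cross-linker of smooth muscle, had 2565 TPM in glia, against 9.42, 11.1 and 11.2 TPM in cerebellum, cortex and hippocampus, 229-fold (155 to 353.8) above hippocampus. Calponin 1 (Cnn1), which restrains actomyosin, had 341 TPM in glia, against 0, 0.400 and 0.860 TPM. Its fold over hippocampus, where it had 3 counts, was 397 with an interval from 135 to 1918. The regulatory light chain Myl9 had 1117 TPM in glia and 25.96 to 28.2 TPM in the regions. Caldesmon (Cald1) had 916 TPM in glia and 29.1 to 36.2 TPM in the regions, and the tropomyosins Tpm1 and Tpm2 were 5.03-fold (4.73 to 5.36) and 24.7-fold (19.4 to 31.8) above the nearest region.

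The smooth muscle set was incomplete. The smooth muscle myosin heavy chain Myh11 had 1.59 TPM in glia, against 2.26, 3.72 and 2.73 TPM in cerebellum, cortex and hippocampus. Desmin (Des), the filament of muscle cells, had 1.04 TPM in glia, against 10.3, 1.91 and 0.92 TPM, and the myosin light chain kinase Mylk 4.01 TPM in glia, against 1.74, 8.43 and 5.02 TPM. Myocardin (Myocd), the coactivator that drives smooth muscle genes, had 0.110 TPM in glia and 0.190 to 2.14 TPM in the regions. The serum response factor Srf, with which it works, lay within the tissue range at 31.6 TPM in glia and 17.9 to 38.0 TPM in the regions. None of these genes was called.

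Among the regulators, the genes called higher were the ligand Tgfb3, the receptor Tgfbr2, and Wwtr1, Tead1 and Amotl2 of the Hippo pathway. Wwtr1, a coactivator that responds to cell tension, had 140 TPM in glia and 10.3 to 11.8 TPM in the regions, and its DNA-binding partner Tead1 had 101 TPM in glia and 7.99 to 10.1 TPM in the regions. The coactivators of serum response factor, Mrtfa and Mrtfb, were not called and were below all 3 regions, with 16.5 and 16.6 TPM in glia. Of the adhesion genes, integrin beta 1 (Itgb1), a subunit of matrix receptors, had 1203 TPM in glia and 46.8 to 49.6 TPM in the regions. The actin cross-linker filamin A (Flna) had 1025 TPM in glia and 74.4 to 95.8 TPM in the regions, 10.7-fold (10.003 to 11.5) above cerebellum.

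Levels in the fibroblast libraries stood beside these values. Acta2 had 4302 and 5067 TPM in ICR MEF and OG2 MEF, and the smooth muscle list summed to 14651 and 16508 TPM there. Of 12 pericyte genes none was called higher and 2, Rgs5 and Vtn, were lower, beside 4.91% and 6.42% of all tested genes. Of the 12, 3 lay above all 3 regions and 6 below. Rgs5 had 2.62 TPM in glia and 63.8 to 73.6 TPM in the regions, and Kcnj8 and Higd1b were at 0 in glia. Of 18 genes of meningeal and perivascular fibroblasts 5 were higher (Col1a1, Col1a2, Ogn, Twist1 and Islr) and 1, Dcn, was lower, or 3 without hippocampus. That list summed to 801 TPM in glia, 161 in cerebellum, 230 in cortex and 147 in hippocampus, and to 10208 and 10134 TPM in ICR MEF and OG2 MEF. Its members Slc6a13, Slc22a6 and Slc47a1 were at 0 in glia, and Lum was at 0.940 TPM. The part of fibroblasts or pericytes in the contractile and matrix results was not tested.

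Promoters were searched for the CArG box, the site of serum response factor, on both strands from 250 bases before to 50 after each RefSeq start. Only exact matches were counted, CC, a run of A or T, and GG, so a site with a mismatch was missed. A match describes letters, not a bound site. Tagln was without an entry. The box was found in 2 of the 14 smooth muscle genes that had an entry, Myl9 and Cnn2. Of 24 actin and adhesion genes 2 held it, Actg1 and Vcl, as did 1 of 23 DNA replication genes and 0 of 23 mitosis genes. Of all 27025 genes 1.81% held it, and of all 32851 promoters 1.63%. The stretches of Myl9 and Cnn2 that hold it are shown because these are contractile genes called higher, with Cnn2 at 558 TPM in glia and 7.82 to 10.8 TPM in the regions. They are 5′ to 3′ on the gene's strand, from RefSeq GRCm38.p6, with the box in capitals.
Myl9, chr2:156775264-156775343, plus strand: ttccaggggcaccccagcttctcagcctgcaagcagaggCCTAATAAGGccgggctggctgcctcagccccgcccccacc
Cnn2, chr10:79988510-79988599, plus strand: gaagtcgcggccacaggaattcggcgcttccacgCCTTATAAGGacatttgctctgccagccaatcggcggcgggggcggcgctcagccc

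Matrix genes were higher across collagens, the enzymes that fold and cross-link them, glycoproteins and proteases. Of 114 matrix genes measured, 111 of them with a mean of 1 TPM or more, 52 were higher and 5 lower. The higher share lies far above the 4.91% of all tested genes, and the lower share is under their 6.42%, which counts the neuronal genes. Glycoproteins and matricellular genes had 13 higher and 2 lower of 21 with a median of 2.70. Proteases and inhibitors had 11 higher and none lower of 20 with a median of 2.81. Collagens had 9 higher of 24 with a median of 1.97, collagen processing genes 7 higher of 16 with a median of 2.05, and basement membrane genes 6 higher of 12 with a median of 2.69, none of the 3 lists having a lower member. Proteoglycans were mixed, with 6 higher and 3 lower of 21 and a median of -0.49.

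Fibronectin (Fn1, chr1:71585520-71653200, GRCm38), the adhesive glycoprotein bound by integrins, had 1018 TPM in glia, against 26.2 in cerebellum, 23.9 in cortex and 37.5 in hippocampus. It stood 27.1-fold (24.1 to 30.7) above hippocampus. Thrombospondin 1 (Thbs1), a matricellular protein that astrocytes are known to secrete during synapse formation, had 615 TPM in glia and 3.52 to 4.08 TPM in the regions, 151-fold (115 to 201) above cortex. The Hippo pathway targets Ccn1 and Ccn2 had 779 and 670 TPM in glia. In the regions Ccn1 had 3.81 to 20.4 TPM and Ccn2 5.61 to 38.1 TPM.

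A pair of related proteins moved in opposite directions. Sparc, which binds collagen, had 3706 TPM in glia, against 883 in cerebellum, 312 in cortex and 300.2 in hippocampus. Its homologue Sparcl1, made by mature astrocytes, had 215 TPM in glia, against 1840, 1574 and 1511 TPM in the same regions, 7.02-fold (6.66 to 7.40) lower than hippocampus. Sparc was thus 94.5% of the pair's summed TPM in glia, and 32.4%, 16.6% and 16.6% in cerebellum, cortex and hippocampus.

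Of the collagens, the fibrillar chain Col5a2 had 370 TPM in glia and 2.13 to 6.81 TPM in the regions, and the short-chain collagen Col8a1 195 TPM in glia and 0.760 to 2.57 TPM in the regions. The basement membrane chain Col4a1 had 204 TPM in glia, against 6.40, 18.4 and 24.9 TPM in the 3 regions taken in the same order. The main collagens of connective tissue were lower in level, Col1a1 at 59.2 TPM in glia and 2.52 to 5.19 TPM in the regions. Col1a1 had 3058 and 2853 TPM in ICR MEF and OG2 MEF. The chaperone of collagen folding, Serpinh1, had 565 TPM in glia and 16.3 to 29.1 TPM in the regions. Lysyl oxidases, which cross-link collagen, were called in 4 of 5 cases (Lox, Loxl1, Loxl2 and Loxl3), with Loxl1 at 105 TPM in glia and 1.97 to 2.39 TPM in the regions.

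In the basement membrane, the laminin chain Lama5 had 165 TPM in glia and 1.67 to 4.61 TPM in the regions, nidogen 2 (Nid2) 136 TPM in glia and 1.07 to 2.87 TPM in the regions, and perlecan (Hspg2) 167 TPM in glia and 3.31 to 4.51 TPM in the regions. Dystroglycan (Dag1), the receptor by which astrocyte endfeet hold laminin, had 327 TPM in glia and 53.5 to 60.4 TPM in the regions. The laminin chain Lamb1 was within the tissue range at 19.5 TPM in glia.

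The proteoglycans went both ways, also within a family. Of the small leucine-rich members, Fmod, Bgn, Ogn and Prelp were higher, fibromodulin (Fmod) at 401 TPM in glia and 3.43 to 17.8 TPM in the regions and biglycan (Bgn) at 229 TPM in glia and 10.9 to 21.4 TPM in the regions. Lumican (Lum) was not called, and decorin (Dcn) was lower, at 2.92 TPM in glia, against 22.2, 45.6 and 61.4 TPM in the cerebellum, cortex and hippocampus libraries. The link proteins Hapln2 and Hapln4, which hold the matrix at nodes and around axons, were lower at 1.08 and 2.50 TPM in glia, and so was tenascin R (Tnr) of perineuronal nets, at 4.46 TPM in glia, against 37.1, 73.0 and 68.2 TPM. The glypican Gpc4, an astrocyte-secreted factor, had 622 TPM in glia and 2.52 to 23.2 TPM in the regions.

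Of the proteases, the membrane-bound collagenase activator Mmp14 had 219 TPM in glia and 8.34 to 13.9 TPM in the regions. The metalloproteinase inhibitor Timp1 had 94.8 TPM in glia, against 0.630, 2.62 and 0 TPM in the cerebellum, cortex and hippocampus libraries. The inhibitor Timp4 ran the other way without being called, since glia was 16.8 TPM against 267, 50.7 and 49.5 TPM in the same regions and so less than 4-fold under the lowest. The plasminogen activator Plau and its receptor Plaur were called higher, at 21.00 and 12.9 TPM in glia and 0.340 to 2.41 TPM in the regions.

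Cell cycle genes were higher without exception among those called. All 28 mitosis genes were higher (median 4.85), and their summed level was 2450 TPM in glia, against 73.7 in cerebellum, 65.3 in cortex and 65.8 in hippocampus. Of 28 DNA replication genes 13 were higher, 27 lay above all 3 regions and the median was 2.47. Of all tested genes 33.0% lay above. Of 27 cyclins, kinases and inhibitors 11 were higher (median 2.18). The share called higher was 4.91% over all tested genes. For all 28 mitosis genes the gap to the nearest region was larger than the range of the regions.

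Cdk1, the kinase that starts mitosis, had 288 TPM in glia, against 1.37, 1.34 and 1.31 TPM in cerebellum, cortex and hippocampus, where it rested on 1 or 2 counts. Topoisomerase 2 alpha (Top2a), which untangles chromosomes, had 262 TPM in glia and 1.34 to 4.06 TPM in the regions. The proliferation marker Mki67 had 90.0 TPM in glia and 0.420 to 1.21 TPM in the regions, 74.4-fold (47.6 to 124) above hippocampus. These transcripts were thus scarce in tissue and abundant in glia. The effective lengths of Cdk1, Top2a and Ccnb1 differed between libraries by 3.16-fold, 3.15-fold and 8.29-fold, which enters their TPM, and all 3 were also called on CPM, in which length plays no part.

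In the replication list, ribonucleotide reductase subunit Rrm2, which makes DNA precursors, had 194 TPM in glia and 2.41 to 3.01 TPM in the regions. The helicase subunit Mcm6 had 101 TPM in glia, against 4.47, 8.53 and 14.1 TPM in cerebellum, cortex and hippocampus. Pcna, the replication clamp that also serves in repair, had 288 TPM in glia and 70.4 to 91.3 TPM in the regions and was not called. The replication list summed to 1558 TPM in glia, against 336 in cerebellum, 260.5 in cortex and 257 in hippocampus, so it was lower than the mitosis list in glia and higher than it in all 3 regions.

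D-type cyclins, which carry growth signals to the cycle, were the most abundant cycle genes. Ccnd1 had 1568 TPM in glia, against 23.5, 44.2 and 37.5 TPM in cerebellum, cortex and hippocampus, 35.5-fold (31.9 to 39.6) above cortex. Ccnd2 had 935 TPM in glia, against 3.01, 44.6 and 47.9 TPM, 19.5-fold (17.7 to 21.6) above hippocampus. Their inhibitors were high as well. Cdkn1a, an arrest gene under p53, had 411 TPM in glia, against 22.2, 14.6 and 4.63 TPM. The locus Cdkn2a, known for its output in cultured and ageing cells, had 55.6 TPM in glia, against 0.570, 0.640 and 0 TPM, and its neighbour Cdkn2b had 60.9 TPM in glia and 0.520 to 2.04 TPM in the regions. Genes that drive division and genes that arrest it were therefore both above tissue in the same library. The E-type cyclin Ccne1 was below all 3 regions without being called, at 16.1 TPM in glia and 18.4 to 28.3 TPM in the regions.

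Mitosis promoters are known for the cell cycle genes homology region, whose core letters are TTTGAA, or TTCAAA on the other strand. In the same windows these letters were found in 17 of the 23 mitosis genes with an entry, in 3 of 23 DNA replication genes and in 20.2% of 27025 genes, and in 17.9% of all 32851 promoters. A match describes the letters and not a bound site. The 90 bases before the start are shown for 6 mitosis genes, all called higher and chosen for their separate roles in division, because the core letters stand in that stretch. They are 5′ to 3′ on the gene's strand, from RefSeq GRCm38.p6, with the core in capitals.
Cdk1, chr10:69352913-69353002, minus strand: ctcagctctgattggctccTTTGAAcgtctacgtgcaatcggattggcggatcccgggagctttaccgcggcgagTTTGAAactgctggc
Cdc20, chr4:118437344-118437433, minus strand: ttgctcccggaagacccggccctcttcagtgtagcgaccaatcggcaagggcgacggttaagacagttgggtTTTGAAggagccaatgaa
Ube2c, chr2:164769839-164769928, plus strand: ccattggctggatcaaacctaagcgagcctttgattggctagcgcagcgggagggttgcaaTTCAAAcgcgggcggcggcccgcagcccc
Top2a, chr11:99024190-99024279, minus strand: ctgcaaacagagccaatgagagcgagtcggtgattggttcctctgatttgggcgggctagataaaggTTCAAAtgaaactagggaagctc
Kif11, chr19:37376292-37376381, plus strand: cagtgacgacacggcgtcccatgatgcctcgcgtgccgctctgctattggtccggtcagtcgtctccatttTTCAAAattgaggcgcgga
Prc1, chr7:80294386-80294475, plus strand: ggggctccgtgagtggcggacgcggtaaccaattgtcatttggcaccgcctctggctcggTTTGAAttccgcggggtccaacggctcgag

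The activator subunit Cdc20 of the anaphase-promoting complex had 101 TPM in glia, against 3.85, 1.61 and 0 TPM in cerebellum, cortex and hippocampus, and its ubiquitin-conjugating partner Ube2c 149.5 TPM in glia and 1.21 to 3.21 TPM in the regions. The spindle motor Kif11 had 52.6 TPM in glia and 0.810 to 1.49 TPM in the regions, 35.3-fold (19.6 to 70.9) above hippocampus. The microtubule bundler Prc1 had 137 TPM in glia, against 11.02, 3.18 and 2.79 TPM in cerebellum, cortex and hippocampus, 12.4-fold (9.15 to 17.4) above cerebellum. All 4 genes stood clear of the 3 regions.

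Metabolic genes mostly stayed within 4-fold of tissue. Of 184 measured genes, all with a mean of 1 TPM or more, 8 were higher and 8 lower, or 4.35% in each direction. These shares are near or under the 4.91% and 6.42% of all tested genes. The 6.42% counts neuronal genes, and the 8 lower genes include Eno2, Slc2a3 and Ckmt1, higher in the neuron library than in glia. The medians of the lists ran from -0.67 for glutamate and amino acid transport to 1.03 for antioxidant genes, beside -0.20 for all tested genes. The calls fell on single genes, and the balance of some related enzymes also differed. Smaller shifts ran through some of the lists. Of 22 respiratory chain genes 17 lay below all 3 regions, and of 20 antioxidant genes 16 lay above them. Of all tested genes 43.7% lay below and 33.0% above.

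Glycolysis had no higher gene and 2 lower ones of 23, beside 4.91% and 6.42% of all tested genes. Without cerebellum 2 were higher. Neuronal enolase (Eno2, chr6:124760053-124769673, GRCm38) had 20.03 TPM in glia, against 948 in cerebellum, 921 in cortex and 795 in hippocampus. It was 39.7-fold (32.4 to 49.1) lower than hippocampus. The neuronal glucose transporter Slc2a3 had 20.7 TPM in glia and 94.9 to 126 TPM in the regions. Both belong with the neuronal genes, standing at 345 and 87.9 TPM in the neuron library. The widely expressed enolase Eno1 had 1328 TPM in glia and 923 to 970 TPM in the regions, so that Eno1 made up 98.5% of the enolase pair in glia, and 50.3%, 51.3% and 53.7% in cerebellum, cortex and hippocampus.

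Other pairs shifted without a call. Lactate dehydrogenase A (Ldha) had 798 TPM in glia, against 239, 455 and 357 TPM in cerebellum, cortex and hippocampus, and was 42.4% of Ldha and Ldhb in glia, and 16.6%, 35.8% and 36.3% in the regions. The astrocyte aldolase Aldoc had 325 TPM in glia, against 3259, 1037 and 1073 TPM, under the tissue range by less than 4-fold. The lactate exporter Slc16a1 stood above all 3 regions at 117 TPM in glia and 19.3 to 30.9 TPM in the regions. Pairs in which glia was not highest included the metallothioneins, where Mt1 was 38.0% of Mt1 and Mt3 in glia and 42.1% to 59.1% in the regions, and the D-type cyclins, where Ccnd1 was 62.7% in glia, and 88.6%, 49.8% and 43.9% in cerebellum, cortex and hippocampus. All pairs were chosen after their values were seen.

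**Figure D3:**
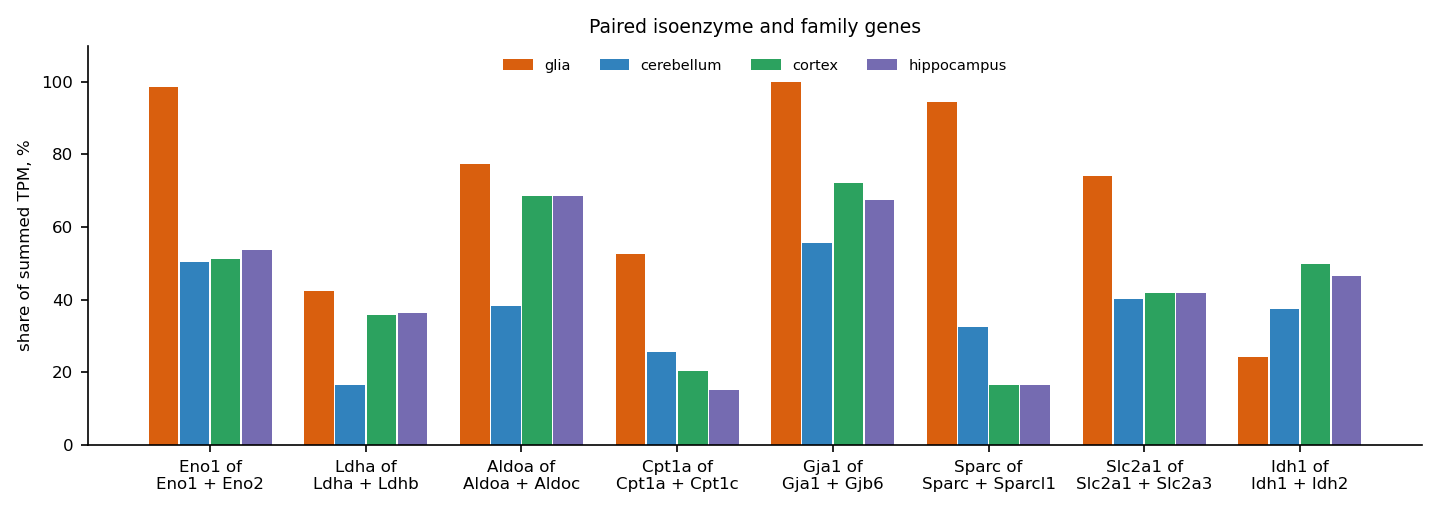
Share of the first gene in the summed TPM of a pair of related genes, in percent, in glia, cerebellum, cortex and hippocampus (bars from left to right in each group, 1 library each). Of the pairs drawn, glia has the highest share except for Idh1 and Idh2, where Idh1 is 24.1% in glia and 37.5% to 49.8% in the regions.

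In the mitochondrion, the genes of the respiratory chain had no call among 22 nuclear genes, with none above all 3 regions, 17 below and a median of -0.41. Of all tested genes 33.0% lay above and 43.7% below, with a median of -0.20. The respiratory chain genes summed to 7984 TPM in glia, against 12071 in cerebellum, 9416 in cortex and 9607 in hippocampus. Of 18 genes of the citrate cycle and pyruvate entry 1 was higher, the NADP-dependent dehydrogenase Idh2, at 343 TPM in glia and 53.3 to 64.3 TPM in the regions. The called share is near the 4.91% of all tested genes, and the median of that list was -0.34. Pyruvate carboxylase (Pcx), which refills the cycle in astrocytes, was above all 3 regions without being called, at 138 TPM in glia and 42.1 to 71.6 TPM in the regions.

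In lipid metabolism, fatty acid genes had 2 higher of 20 and none lower, beside 4.91% and 6.42% of all tested genes, with a median of 0.56. The called genes were Cpt1a and Cpt2, which carry fatty acids into the mitochondrion for oxidation. Cpt1a had 105 TPM in glia and 16.2 to 20 TPM in the regions, 5.24-fold (4.50 to 6.15) above cortex, and Cpt2 48.3 TPM in glia and 6.99 to 10.6 TPM in the regions, 4.56-fold (3.39 to 6.21) above cerebellum. Cpt1c, the form of neurons, had 94.3 TPM in glia and 57.8 to 90.4 TPM in the regions. Cholesterol genes had 1 higher and 1 lower of 19, near the 4.91% and 6.42% of all tested genes. The genes called were the exporters Abca1 and Abcg1. Abca1 had 135 TPM in glia and 15.8 to 22.2 TPM in the regions, whereas Abcg1 had 1.65 TPM in glia and 41.1 to 68.8 TPM in the regions, 24.9-fold (15.001 to 44.3) lower than hippocampus. Apolipoprotein E (Apoe), the carrier that astrocytes secrete, was below all 3 regions at 2722 TPM in glia and 2866 to 3613 TPM in the regions, a small difference that was not called.

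In amino acid metabolism, glutamine synthetase (Glul), which disposes of transmitter glutamate in astrocytes, had 470 TPM in glia, against 842.5, 1234.3 and 1339 TPM in cerebellum, cortex and hippocampus, and was not called. The transaminase Got1 and the proline oxidase Prodh were the 2 lower genes of 16, Got1 at 49.4 TPM in glia and 329.6 to 355 TPM in the regions and Prodh at 2.09 TPM in glia and 29.2 to 37.2 TPM in the regions. Of all tested genes 6.42% were called lower and 4.91% higher. Of 14 serine and one-carbon genes Aldh1l1 alone was called. The first enzyme of serine synthesis, Phgdh, had 219 TPM in glia and 92.1 to 109 TPM in the regions. Of 20 genes of the pentose phosphate path and nucleotide synthesis none was called, 14 lay above all 3 regions and the median was 0.83. Of all tested genes 33.0% lay above.

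Of 12 glycogen and creatine genes 3 were lower and none higher, beside 6.42% and 4.91% of all tested genes. The creatine synthesis enzyme Gatm had 21.5 TPM in glia and 110 to 139 TPM in the regions, muscle-type glycogen phosphorylase Pygm 1.29 TPM in glia and 24.9 to 57.4 TPM in the regions, and mitochondrial creatine kinase Ckmt1 8.41 TPM in glia and 257 to 281 TPM in the regions. Ckmt1 had 243 TPM in the neuron library. Brain-type glycogen phosphorylase Pygb was above all 3 regions, at 377 TPM in glia and 120 to 181 TPM in the regions. Cytosolic creatine kinase Ckb was the most abundant of them at 5679 TPM in glia, against 3819, 2027 and 1577 TPM in cerebellum, cortex and hippocampus.

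Antioxidant genes had 3 higher of 20, none lower and a median of 1.03, beside 4.91% higher and 6.42% lower of all tested genes. Heme oxygenase 1 (Hmox1), a stress gene that breaks down heme, had 237 TPM in glia and 3.98 to 8.70 TPM in the regions, 27.3-fold (18.95 to 40.6) above cerebellum. Glutathione peroxidase Gpx1 was 4.39-fold (3.82 to 5.05) above cortex, and the extracellular dismutase Sod3 7.21-fold (5.64 to 9.31) above cerebellum. The mitochondrial dismutase Sod2 was below all 3 regions without being called, at 36.8 TPM in glia and 87.4 to 101 TPM in the regions.

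**Figure D4:**
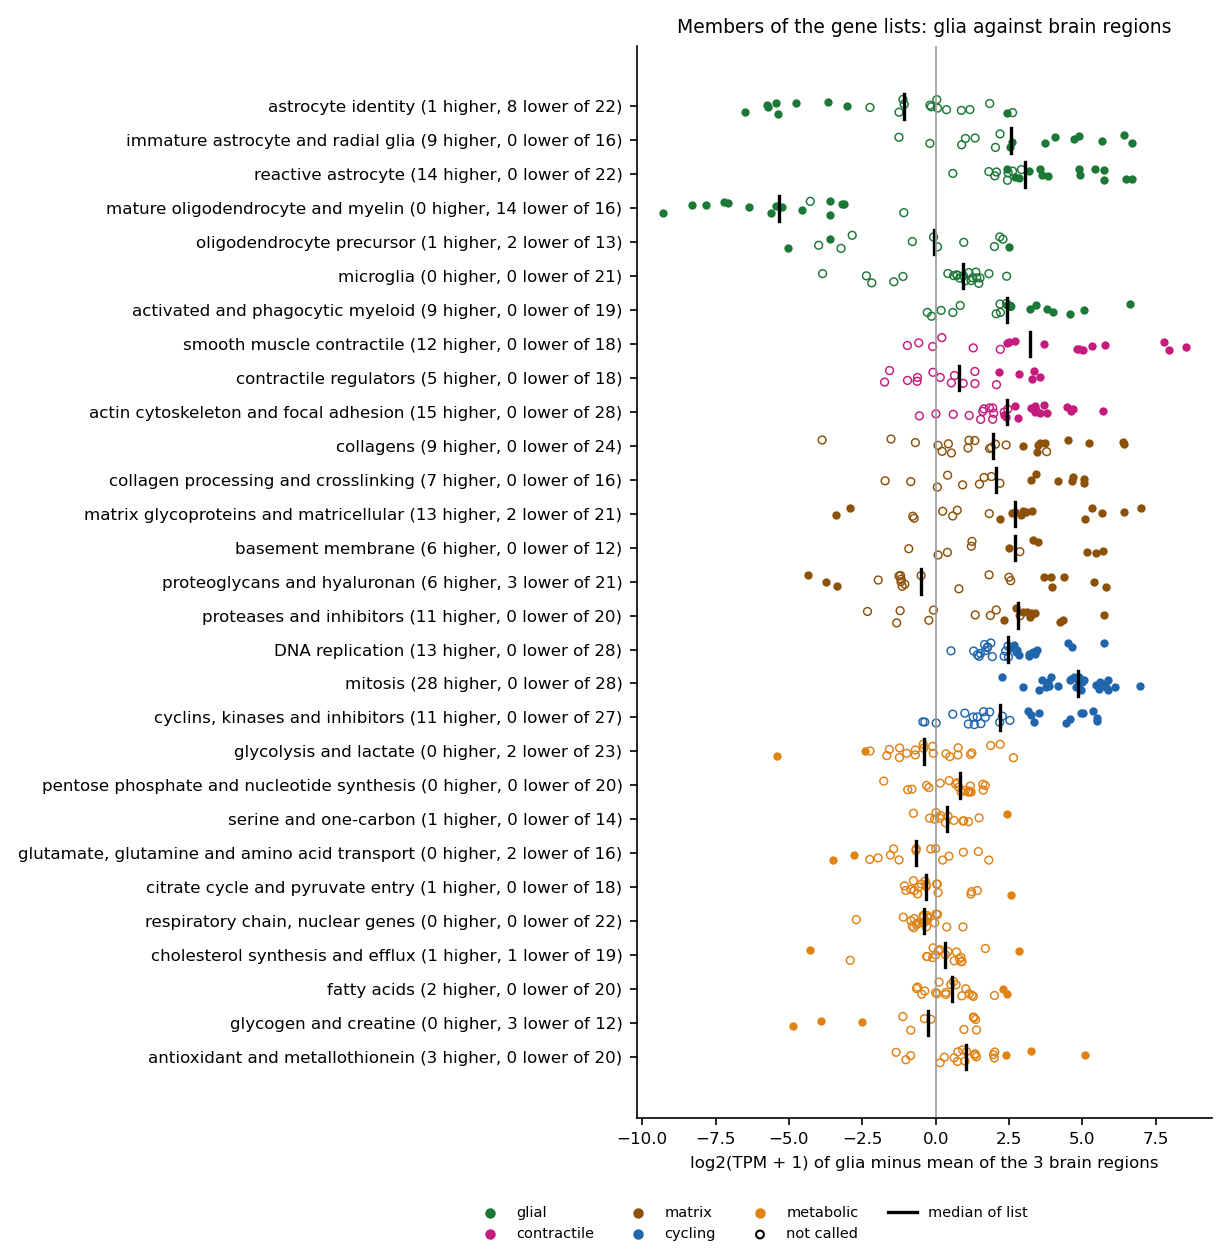
Difference between glia and the mean of cerebellum, cortex and hippocampus on the log2(TPM + 1) scale for every measured member of the glial, contractile, matrix, cycling and metabolic lists, with called members as filled points, uncalled members as open points and a black bar at each median. The median of the myelin list is -5.34 and that of the mitosis list 4.85, while the metabolic medians lie between -0.67 and 1.03.

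Among genes of other cells in tissue, those of endothelium were mostly below the regions, 13 of 15, beside 43.7% of all tested genes. Of the choroid plexus and ependyma genes 7 of 13 lay below, and of the border macrophage and lymphocyte genes 4 of 11. Of 15 endothelial genes none was higher and 4 were lower, beside 4.91% and 6.42% of all tested genes, with a median of -2.54. The defining genes Cldn5, Pecam1, Emcn and Tie1 had 0 counts in glia. The barrier transporters Slco1a4 and Slco1c1 ran the other way, with Slco1a4 at 135 TPM in glia and 61.6 to 79.4 TPM in the regions, and neither was called. Of 13 choroid plexus and ependyma genes 1 was higher and 1 lower, near the shares of all tested genes (4.91% and 6.42%). Foxj1, the regulator of motile cilia, had 170.2 TPM in glia and 5.34 to 10.2 TPM in the regions, 16.7-fold (12.9 to 22.04) above cerebellum. Transthyretin (Ttr) had 4.13 TPM in glia, against 35.0, 1183 and 63.1 TPM in the cerebellum, cortex and hippocampus libraries. The ciliary genes Tmem212 and Ccdc153 did not accompany Foxj1, at 0 and 1.58 TPM in glia. Of 11 genes of border macrophages and lymphocytes Ms4a7 was higher, at 18.1 TPM in glia and 0 to 1.76 TPM in the regions, while Cd163 and Lyve1 had 0 counts in glia. Of the 11, 5 averaged under 1 TPM over the 4 libraries, and 4.91% of all tested genes were higher.

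Among 23 transcription factors that mark position in the brain, 7 averaged under 1 TPM over the 4 libraries. Of the 23, 16 lay within the range of the regions and 1 was called higher, near the 4.91% of all tested genes. Lhx2 had 128 TPM in glia, against 0.270 in cerebellum, 49.3 in cortex and 57.5 in hippocampus, and Emx2 25.03 TPM in glia, against 0.150, 13.3 and 17.6 TPM. The hindbrain factor En2 had 0.110 TPM in glia, against 101 TPM in cerebellum and 0.190 to 0.260 TPM in the forebrain regions, and Zic1 had 5.15 TPM in glia, against 566, 9.17 and 15.7 TPM. Otx1 was the gene called, at 19.2 TPM in glia and 0.690 to 3.84 TPM in the regions. Emx1, a factor of the dorsal forebrain, had 0.330 TPM in glia, against 0, 19.7 and 17.4 TPM in cerebellum, cortex and hippocampus.

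Of 5 sex-linked genes none was called. The X inactivation transcript Xist had 0.130 TPM in glia and 0.140 to 0.92 TPM in the regions. Of the Y-linked genes Ddx3y had 42.2 TPM in glia and 39.4 to 57.3 TPM in the regions. Of 16 immediate early and heat shock genes none was higher and 1, Nr4a1, was lower, near the 6.42% of all genes, while without cerebellum 4 were lower. Nr4a1 had 5.57 TPM in glia and 74.7 to 117 TPM in the regions, and Fos lay below all 3 regions at 33.4 TPM in glia and 54.8 to 159 TPM in the regions.

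The 20 genes with the largest gap to the nearest region, neuronal and predicted genes aside, gathered several of these groups. Acta2 led with a log2 ratio of 8.16, and Tagln, Cnn1, Cdk1, Thbs1, Nes, Lgals3, Col8a1 and Top2a were also among them. The insulin-like growth factor binding protein Igfbp2 had 10580 TPM in glia, against 18.0, 69.0 and 27.0 TPM in cerebellum, cortex and hippocampus, and Igfbp3 had 981 TPM in glia and 12.8 to 15.1 TPM in the regions. The ciliary neurotrophic factor gene Cntf, a cytokine of astrocytes, had 151 TPM in glia and 0.480 to 2.12 TPM in the regions. The mitotic kinase Pbk, the calcium-binding S100a11, the annexin Anxa3, galectin 1 (Lgals1), the sulfatase Arsi and the noncoding Lockd had log2 ratios of 5.71 to 6.48. The neuropeptide gene Npvf, otherwise known from the hypothalamus, had 119.5 TPM in glia and 0 counts in all 3 regions, at least 39.8-fold higher with 3 counts taken as the limit in the shallowest region. Elobl had 214 TPM in glia and 0 in the regions, with counts that were not whole, so its reads are shared with other genes and its level is uncertain.

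On the lower side the 20 leading genes held genes of the oligodendrocyte line or linked to it in their lists or by common use as markers, among them Mbp, Mobp, Mag, Cldn11, Mog, Apod and Bcas1. The effective length of Bcas1 differed 8.68-fold between libraries, so its fold is uncertain. They also held 3 haemoglobin genes, the connexin Gjb6, the pericyte-made Vtn and the prostaglandin D synthase Ptgds, which had 9.52 TPM in glia, against 1381, 2532 and 997 TPM in cerebellum, cortex and hippocampus. Slc24a2, Dlg2, Atp2b3, Gabra2, Klhl34 and Kcnma1 were also among them. Dlg2, a scaffold of synapses, and Gabra2, a GABA receptor subunit, are genes of neurons. Both stayed in this list because the neuron library, at 5.45 and 1.74 TPM, was less than 4-fold above glia with 1 TPM added. Slc24a2, Atp2b3 and Kcnma1 were likewise low in the neuron library, at 4.37, 1.28 and 2.26 TPM, so the filter could not have set them aside.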

How the data were processed

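The series holds 8 RNA-seq libraries, 1 per tissue or cell type, each as a table of 29713 gene rows. The submitters' processing notes name Bowtie, RSEM and mm10, without versions; annotation release and strandedness are not stated there. Per the file headers, the authors deposited expected counts, effective lengths and TPM. TPM as deposited was used for levels and calls and was not renormalised, and the expected counts gave depth and intervals. RSEM shares reads between similar genes, so counts that are not whole are uncertain. Per the files, 29202 rows carry a symbol through the GENCODE M21 annotation and 511 do not.

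A pseudocount of 1 TPM, a level of 10 TPM and a fold of 4 set the calls, over genes averaging 1 TPM or more. Calls were made on TPM against the nearest region, with no test, since a group has 1 library. List medians are glia minus the mean of the regions. Fold intervals are exact (Clopper-Pearson, 95%) on expected counts and cover counting error alone; 3 counts per library served as the limit where a gene had 0. Lists of 689 genes, 687 of them measured, were grouped by role, and the named genes are list members taken by role plus the 20 leading genes in each direction, leaving out neuronal, predicted, ribosomal, histone and small RNA genes and those under 30 counts. The comparison, its members and its lists were chosen with earlier results of these data known, and gene pairs and families after their values were seen. Just inside the fold limit, 89 higher genes stood 4.0 to 4.4-fold apart and 102 stood just outside it at 3.6 to 4.0-fold; for lower genes these were 56 and 88.

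Alternatives were other scalings (TMM from edgeR 4.0.16 in R 4.3.3, CPM, median of ratios, removal of a length trend over 20 bins), other pseudocounts, floors and folds, thinning to the shallowest library and leaving out a region. Calls and intervals were computed with pandas 2.3.3 and scipy 1.17.1 under Python 3.11.15 (numpy 2.4.6), figures were drawn with matplotlib 3.10.9, and the steps were checked on simulated counts. Promoter sequences and gene starts are from RefSeq GRCm38.p6, and gene coordinates from GENCODE M21 on GRCm38. Values of some single genes are not reported here.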

Additional observations from a re-analysis of the deposited data

How the results depend on the processing

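No called gene of a list or among the leading genes changed direction under the alternatives run. Only the scalings, the length trend and thinning could have reversed a direction, since a changed pseudocount, floor, fold, gap or region set cannot. Of 256 such genes, 179 kept their call at 8-fold, 214 with 5 TPM added, 248 on CPM, 252 after thinning and 254 by the gap rule below, and 255 or 256 under the other alternatives. A lower floor, the 2-fold limit, 0.1 TPM added or a region left out can only keep a call, so these could not fail. Over the 11 alternatives of pseudocount, scaling, depth and region, leaving aside those of fold, floor and gap, 213 kept their call throughout, and Tgfbr2 and Mfap5 lost it under 3. Some of the 11, as just said, could not remove a call. Higher genes numbered 518 with 5 TPM added, 1749 at 2-fold, 383 at 8-fold and 2702 where the gap only had to exceed the range of the regions, and lower genes 1937 at 2-fold and 3032 by the gap. At 8-fold 20 glial, 20 contractile and 32 matrix genes were higher. Metabolic genes had 29 higher and 16 lower at 2-fold, 1 higher and 5 lower at 8-fold, and 58 higher and 40 lower by the gap. Leaving out cerebellum gave 971 higher and 1491 lower genes, cortex 885 and 1081, and hippocampus 838 and 1121. Between scalings the median of all genes moved from -0.20 to at most 0, and the share of higher genes among calls from 43.3% to at most 50.3%. The medians of the oligodendrocyte precursor and the glycogen and creatine lists changed sign, to 0.10 and 0.02 on CPM. The cause of these shifts was not tested. With 1 library a group, animal-to-animal spread is unmeasured, and genes resting on a few counts in tissue, such as Cnn1 and Cdk1, have wide intervals. No paired analysis was possible because each group has 1 library.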

Other observations

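Gene families were picked out after their values were seen, and some of their members also stand in the lists above. Their counts are a description, beside 4.91% of all tested genes called higher and 6.42% called lower. Of all tested genes 33.0% lay above all 3 regions. All 11 annexins, proteins that bind membranes in the presence of calcium, lay above the 3 regions and 5 were called higher (Anxa1, Anxa2, Anxa3, Anxa4 and Anxa5). Anxa2 had 967 TPM in glia, against 16.9 in cerebellum, 19.8 in cortex and 24.1 in hippocampus, and Anxa1 189 TPM in glia and 0.980 to 5.08 TPM in the regions. Of 16 S100 genes, small calcium-binding proteins, 4 were higher (S100a4, S100a6, S100a10 and S100a11) and S100b was lower. S100a6 had 1033 TPM in glia and 25.8 to 38.7 TPM in the regions, in contrast to S100b, the member used as an astrocyte marker. The 7 insulin-like growth factor binding proteins summed to 14013 TPM in glia, against 203, 276 and 261 TPM in cerebellum, cortex and hippocampus, and Igfbp2 and Igfbp5 made up most of it, Igfbp5 at 2337 TPM in glia and 61.3 to 103 TPM in the regions.

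Of 39 genes of the kinesins, motors that move along microtubules, 10 were higher and 4 lower, and most were not called, among them the division motor Kif14 and the cargo motors Kif1a, Kif1b and Kif5b. The higher ones are motors of the spindle or of cell division such as Kif20a, at 83.5 TPM in glia and 0 to 1.06 TPM in the regions. The lower ones include Kif5a, which carries cargo in axons, at 1.96 TPM in glia, against 386, 1380 and 1148 TPM in cerebellum, cortex and hippocampus. Of 20 connexins none was higher and 4 were lower, among them Gjb6 of astrocytes and Gjb1 and Gjc3 of the oligodendrocyte line. In the cytokine group that signals through gp130, the ligands Cntf and Clcf1 and the receptor Osmr were higher, Clcf1 at 124 TPM in glia and 0.860 to 2.64 TPM in the regions. The receptor subunit Cntfr, which binds the first of these ligands, was lower, at 4.83 TPM in glia, against 120 TPM in cerebellum, 64.6 TPM in cortex and 53.2 TPM in hippocampus, and at 23.7 TPM in the neuron library.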
